A study of Mus musculus with 2 samples.

Results

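The genes described here are 45 homeobox and paired-box transcription factors that lie outside the Hox clusters. They were listed by name as factors of craniofacial, placodal and progenitor development, with earlier results of these data known. All 45 were found among the 21607 entries analyzed, of which 21590 have a value in both libraries. Lingual epithelium of newborn (P0) mice of genotype Sox2GFP, which report *Sox2* expression as green fluorescence, was pooled over pups, dissociated and sorted by FACS. The GFP-high and GFP-low populations, of about 100000 cells each, were separate brightness bins of a continuum, and each gave 1 RNAseq library. Both carry the reporter, and the GFP-low bin may hold lingual mesenchymal cells with weak *Sox2* expression beside non-taste epithelium. With 1 library per population there is no replicate check, no p-value and no error beyond counting, so each difference below is between 2 libraries.

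Homeodomain proteins bind DNA through a bundle of helices, the last of which lies in the major groove and carries the contacts that read the bases. Pax proteins bind through a paired domain, and some also keep a homeodomain. In the head, combinations of these factors mark the jaw, tooth, placode and oral ectoderm territories, and in the tongue several act on both sides of the border between epithelium and mesenchyme. They often work in pairs, as TALE proteins (Meis, Pbx and Irx) do with other homeodomain proteins and as sine oculis proteins such as those of *Six2* and *Six4* do with Eya co-activators.

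The stretch of the homeobox that encodes the core of this recognition helix is printed for the 4 genes on which the differences below turn most, chosen among the enriched genes as the 2 with the largest folds towards GFP-high, the most abundant one in GFP-high cells and the one with the largest fold towards GFP-low. Sequences were read from the mm10 genome along the coding strand, and capitals mark the 18 bases that encode tryptophan, an aromatic residue, any residue, asparagine, any residue and arginine. In *Prox1* the 30 printed bases lie in exon 4 of 5 (chr1:190147087-190147116, minus strand). In *Irx4* they lie in exon 5 of 6 (chr13:73267667-73267696, plus strand) and in *Isl1* in exon 4 of 6 (chr13:116303103-116303132, minus strand). In *Meis2* the 30 printed bases are split by an intron on the minus strand of chromosome 2.
Prox1: aagTGGTTCAGCAATTTCCGTgagttttac
Irx4: accTGGTTTGCCAACGCACGTcggcgcctc
Meis2: aacTGGTTTATCAATGCCAGAagaagaata
Isl1: gtgTGGTTTCAAAACAAGCGGtgcaaggac
The pattern occurred once in the coding sequence of 41 of the 45 genes. It was not found in *Pax1* and *Pax9*, which have a paired domain, nor in *Tshz1* and *Tshz2*, which are known for their zinc fingers. Over the 180 bases of the homeobox, the median nucleotide identity was 74.4% for the 65 pairs of the same family and 42.8% for the remaining pairs of 820.

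Expression is given as FPKM, the fragments mapped to a gene per kilobase of its transcript and scaled to the depth of the library, which allows levels of different genes to be set side by side. A gene was counted as enriched in a population at 5 FPKM or more there and at a ratio of at least 1.5 to the other population. Of the 45 factors, 6 were enriched in GFP-high cells (*Prox1*, *Irx3*, *Irx4*, *Meis1*, *Meis2* and *Tshz2*), where 4.72% of all genes met the rule. Another 8 were enriched in GFP-low cells (*Dlx2*, *Dlx3*, *Dlx4*, *Dlx5*, *Msx2*, *Pax9*, *Isl1* and *Lhx6*), where 4.44% of all genes did. The rule can only be met by genes that reach 5 FPKM, and 24 of the 45 factors did so in at least 1 population. Of these 24, 25% met the rule for GFP-high and 33.3% that for GFP-low cells, beside 9.48% and 8.9% of the 10760 genes of the table that reach this level. The folds of the 6 GFP-high factors ran from 1.61 to 15.0 with a median of 2.52, and those of the 8 GFP-low factors from 1.59 to 6.37 with a median of 2.35. The 10 other factors at 5 FPKM or more differed by 1.01- to 1.42-fold.

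None of the 45 factors was at 0 in both libraries, beside 28 of 128 other homeobox and Pax genes measured. The members were chosen with earlier results of these data known. This contrast and the shares of enriched genes above are therefore no finding about homeobox and Pax genes as a class. The median of the list lay close to that of all genes. Their median difference in log2(FPKM + 1), GFP-high minus GFP-low, was -0.01, beside -0.02 over the 17283 genes not at 0 in both libraries. The higher FPKM was that of GFP-high cells for 22 of the 45 and that of GFP-low cells for 23. Summed over the 45 genes, GFP-high cells had 1592 FPKM and GFP-low cells 1662 FPKM, which is 0.149% and 0.166% of the FPKM of all genes. The direction followed the family in several cases, as all 6 Dlx genes, both Msx genes, all 4 LIM genes and all 4 Prrx and Alx genes were higher in GFP-low cells, while all 5 Meis and Pbx genes and 5 of 6 Irx genes were higher in GFP-high cells, except that *Dlx1*, *Irx2* and *Pbx2* changed direction under another scaling of the libraries.

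**Figure D1:**
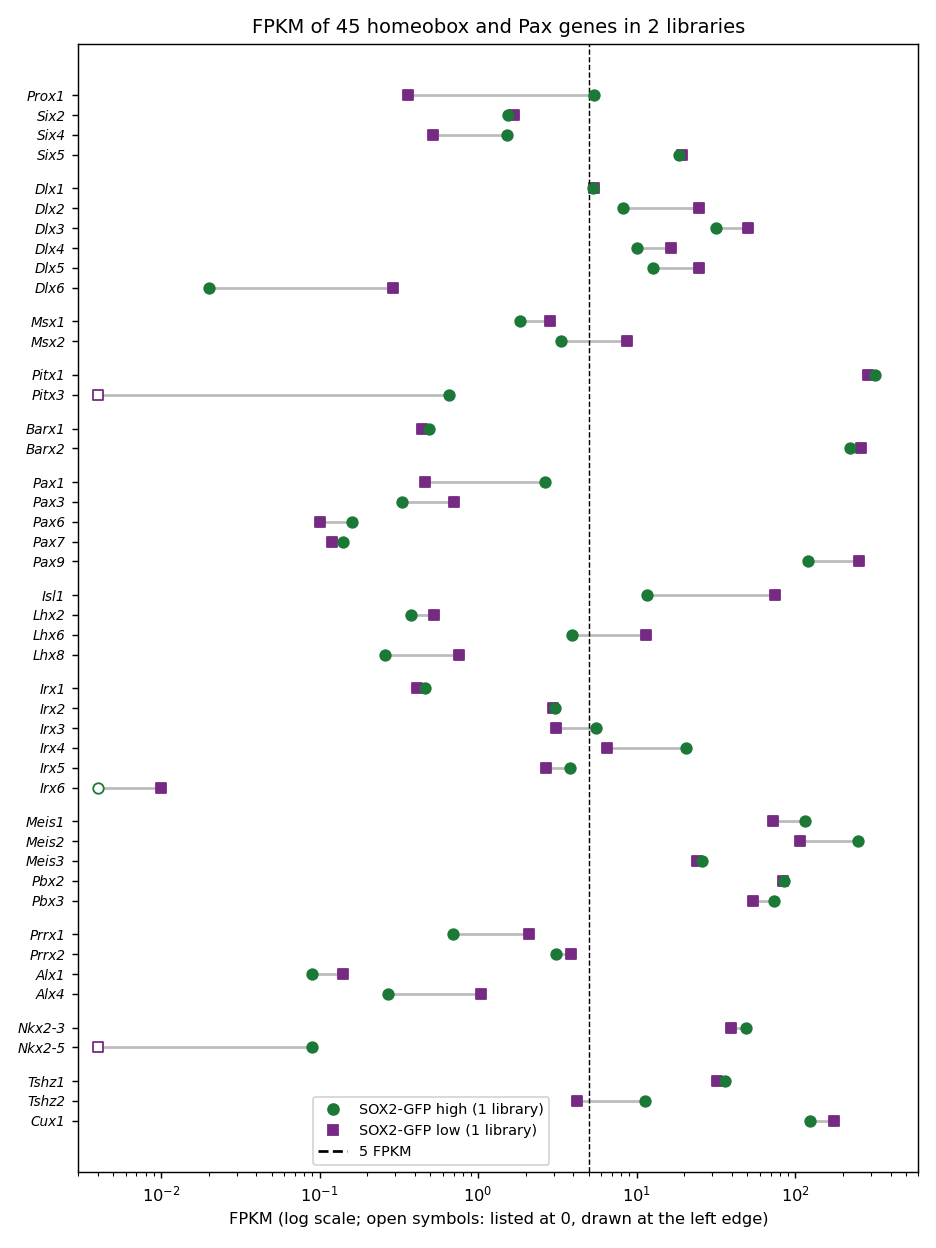
FPKM of the 45 factors (log axis) in the GFP-high library (green circles) and the GFP-low library (purple squares), grouped by family, with a dashed line at 5 FPKM and open symbols at the left edge for genes listed at 0. Levels run from 0 to the 320 and 289 FPKM of *Pitx1*, with the widest gaps among genes over 5 FPKM at *Prox1* and *Isl1*.

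Because a bulk library sums over its cells, fewer cells of a type and less RNA per cell cannot be told apart in any of these differences. As a check of the sort, *Sox2* itself was at 112 FPKM in GFP-high and 59.0 FPKM in GFP-low cells, a ratio of 1.90. Both libraries held abundant epithelial RNA, with *Krt5*, a keratin of basal keratinocytes, at 9667 and 10422 FPKM. They differed within the epithelium, as all 7 basal keratinocyte genes were higher in GFP-low cells, with sums of 25796 and 32952 FPKM, while of 9 suprabasal genes 5 met the rule for GFP-high and 1 that for GFP-low cells, with sums of 71673 and 31333 FPKM. Among these, *Krt4* was at 14203 FPKM in GFP-high and 2323 FPKM in GFP-low cells, and *Krt13* was at 30523 and 9738 FPKM. The part of this shift in the differences of the 45 factors was not tested. Taste cell genes summed to 665 FPKM in GFP-high and 232 FPKM in GFP-low cells over 13 genes, while fibroblast genes summed to 510 and 2361 FPKM over 11 genes and Schwann lineage genes to 89.8 and 318 FPKM over 8 genes. From the steps in low FPKM values, about 27250000 reads in the GFP-high and 35750000 in the GFP-low library lie behind the values, where the labels give about 75000000 reads per sample. These depths are approximate, since 61.9% and 62.6% of the low values tested lay within 0.15 of a whole read. Read numbers below are ranges over the annotated transcript lengths, and 3 reads was taken as the floor under which no fold is given.

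**Figure D2:**
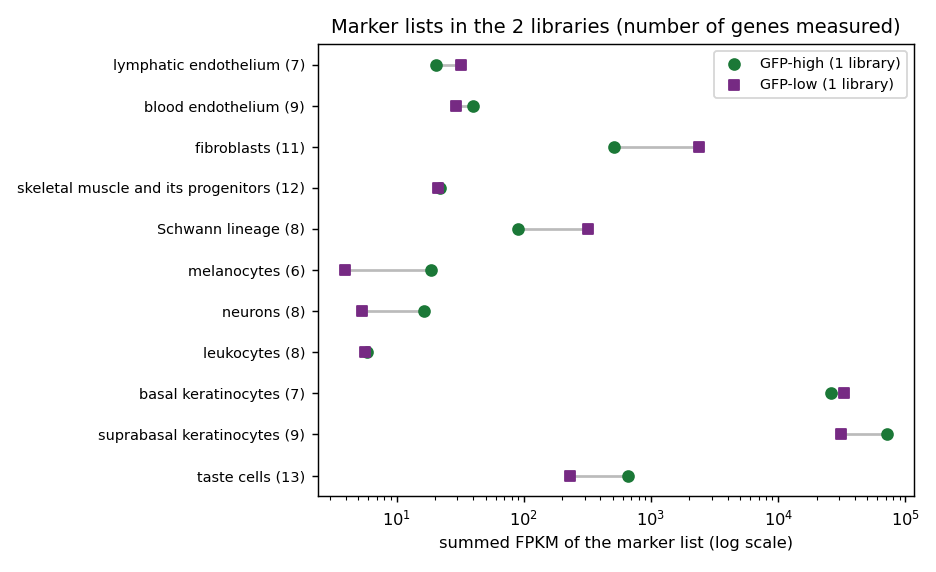
Summed FPKM (log axis) of 11 lists of cell type markers in the GFP-high library (green circles) and the GFP-low library (purple squares), with the number of genes measured in parentheses. Keratinocyte lists lie highest in both libraries, and the fibroblast and Schwann lists lie higher in GFP-low cells. The suprabasal keratinocyte (71673 and 31333 FPKM), taste, neuron and melanocyte lists lie higher in GFP-high cells. The melanocyte sum is mainly that of *Mitf*, at 17.2 FPKM in GFP-high and 1.24 FPKM in GFP-low cells. Of the 6 melanocyte genes, 3 were higher in GFP-low cells and 2, with *Mitf* among them, in GFP-high cells.

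*Prox1*, on chromosome 1 (190118035 to 190170714), had the largest fold of the 45 factors that was measured over the floor in both libraries. It encodes a divergent homeodomain protein that sets lymphatic endothelial fate and is also known from taste buds and other sensory cells. *Prox1* was at 5.40 FPKM in GFP-high cells, or 433 to 1135 reads, and at 0.36 FPKM in GFP-low cells, or 38 to 99 reads. The ratio was 15.0, at a level close to the 5 FPKM minimum in the higher library. Because *Prox1* also marks lymphatic endothelium, the markers of that tissue were read beside it. The 7 lymphatic genes measured summed to 20.3 FPKM in GFP-high and 32.0 FPKM in GFP-low cells, and the chemokine *Ccl21a* was listed at 0 in both. The hyaluronan receptor *Lyve1* was at 1.87 FPKM in GFP-high cells and 0.91 for GFP-low cells, and the receptor *Flt4* at 0.84 and 0.48. Most of the GFP-low sum came from *Nrp2*, at 12.7 and 17.5 FPKM, and *Reln*, at 1.11 and 11.9 FPKM. Of these 7 genes, 4 were higher in GFP-high cells, by 1.75-fold for *Flt4* to 3.23-fold for *Mmrn1*. The 9 blood endothelium genes summed to 40.15 FPKM in GFP-high and 29.2 FPKM in GFP-low cells. Of these 9, 8 were higher in GFP-high cells, with *Pecam1* at 5.31 and 2.38 FPKM, and 1, *Tek*, in GFP-low cells, at 0.94 and 1.48 FPKM. *Shh*, the ligand made by taste precursor cells, was at 20.7 FPKM in GFP-high and 0.84 FPKM in GFP-low cells. Of the 13 taste genes, 11 were higher in GFP-high cells, while *Entpd2* was enriched in GFP-low cells, at 23.7 and 42.2 FPKM, and *Pou2f3* was at 3.44 and 3.58 FPKM. None of these lists was tested for its part in the difference of *Prox1*.

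The RefSeq promoter windows hold 250 bases upstream of the annotated start, and the *Prox1* window that overlaps no annotated exon is shown with that of *Dlx2*, the GFP-low gene with the largest fold among those with such a window. They are chr1:190170828-190171077 on the minus strand and chr2:71546755-71547004 on the minus strand of GRCm38.p6, and capitals mark the GC box GGGCGG on either strand.
Prox1: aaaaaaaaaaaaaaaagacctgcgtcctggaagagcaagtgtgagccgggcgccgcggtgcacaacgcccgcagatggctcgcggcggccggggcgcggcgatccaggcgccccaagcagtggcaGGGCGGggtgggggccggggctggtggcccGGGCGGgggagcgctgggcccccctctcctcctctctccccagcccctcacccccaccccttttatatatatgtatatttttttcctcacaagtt
Dlx2: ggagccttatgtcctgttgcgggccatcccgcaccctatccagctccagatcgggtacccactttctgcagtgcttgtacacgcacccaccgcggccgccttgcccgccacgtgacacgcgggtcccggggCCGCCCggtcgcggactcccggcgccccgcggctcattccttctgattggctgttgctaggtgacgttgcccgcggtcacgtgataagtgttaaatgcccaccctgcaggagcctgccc
Both windows are rich in G and C, at 64.8% and 66.4%, beside a median of 52.4% over 32851 promoters and 62% over the 37 entries that matched 31 of the 45 factors. The GC box stood in 22 of the 37 entries (59.5%), beside 32.7% of all promoters. The letters TAATTA, bound by many homeodomains, stood in 2 entries (*Prrx1* and *Msx2*), or 5.41%, beside 4.84% of all promoters. TGACAG, a Meis site, stood in 5 entries (13.5%), those of *Pax6*, *Six5*, *Pax9*, *Nkx2-5* and *Six2*, beside 15.9% of all promoters. CTTTGT, a SOX site, stood in 5 entries, those of *Prox1*, *Lhx6*, *Pax6*, *Meis3* and *Six5*, beside 16.5% of all promoters. The *Prox1* match lies in another window of that gene, which overlaps an exon, and not in the window shown. GACCACCCA, a Gli site, stood in none of the 37 and in 0.225% of all promoters. The searches covered both strands, and a match is a run of letters, not a binding site.

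*Six2*, *Six4* and *Six5*, the sine oculis genes of this set, which act in sensory placodes, kidney and muscle, stood at lower levels or close to equal. *Six4* was at 1.52 FPKM in GFP-high and 0.52 FPKM in GFP-low cells, a ratio of 2.92 with both values under the minimum. *Six2*, a factor of nephron progenitors and of craniofacial mesenchyme, was at 1.55 and 1.69 FPKM. *Six5*, the most abundant of the 3, was at 18.6 FPKM in GFP-high and 19.5 FPKM in GFP-low cells, a ratio of 1.05. The homeobox sequences of these 3 genes shared 67.8 to 76.7% of bases with each other, while that of *Prox1* shared 37.2% with each of them.

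The Dlx genes, vertebrate relatives of Distal-less that pattern the jaws and branchial arches, are arranged as pairs on opposite strands. *Dlx1* and *Dlx2* lie 9.43 kb apart on chromosome 2, *Dlx3* and *Dlx4* 15.2 kb apart on chromosome 11, and *Dlx5* and *Dlx6* 9.24 kb apart on chromosome 6. The helix codons of 4 of them are shown because the genes are one family but differ in fold and in level. All lie in exon 3, at chr2:71532270-71532299, chr11:95141434-95141463, chr6:6878453-6878482 and chr6:6867047-6867076, in the order listed, and capitals mark the same 18 bases as above.
Dlx1: ataTGGTTCCAGAACAAACGCtccaagttc
Dlx4: atcTGGTTTCAGAACAAACGCtccaaatat
Dlx5: atcTGGTTTCAGAACAAAAGAtccaagatc
Dlx6: ataTGGTTTCAGAATAAGCGCtctaagttt
Over the whole homeobox, the Dlx pairs shared 66.1 to 81.7% of bases.

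Together the 6 Dlx genes summed to 68.2 FPKM in GFP-high and 123 FPKM in GFP-low cells, a ratio of 1.80. *Dlx3*, a regulator of epidermal and hair differentiation, was the most abundant, at 31.9 FPKM in GFP-high and 50.6 FPKM in GFP-low cells, or 46.7% and 41.3% of the Dlx sum. Its neighbor *Dlx4* was at 10.1 and 16.5 FPKM, so the fold of both genes of this pair was close, at 1.59 and 1.63. *Dlx2*, which acts in the upper jaw and tooth germs, was at 8.24 FPKM in GFP-high and 24.9 FPKM in GFP-low cells, a ratio of 3.02. Its neighbor *Dlx1* was at 5.28 and 5.37 FPKM, a ratio of 1.02. The level of *Dlx2* was thus 1.56 times that of *Dlx1* in GFP-high cells and 4.63 times in GFP-low cells, so that in this pair the neighbors differed in fold. An antisense transcript, *Dlx1as*, overlaps 8.15% of the *Dlx1* exon bases. *Dlx5*, a factor of lower jaw and bone development, was at 12.7 FPKM in GFP-high and 24.9 FPKM in GFP-low cells, a ratio of 1.96. Its neighbor *Dlx6* was at 0.02 FPKM in GFP-high cells, which is at most 1 read and under the floor, and at 0.29 FPKM in GFP-low cells, or 9 to 21 reads. Set against the GFP-high floor, the level of *Dlx6* in GFP-low cells was at least 2.29-fold higher. *Dlx6* was the Dlx gene with the fewest reads in both libraries.

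**Figure D3:**
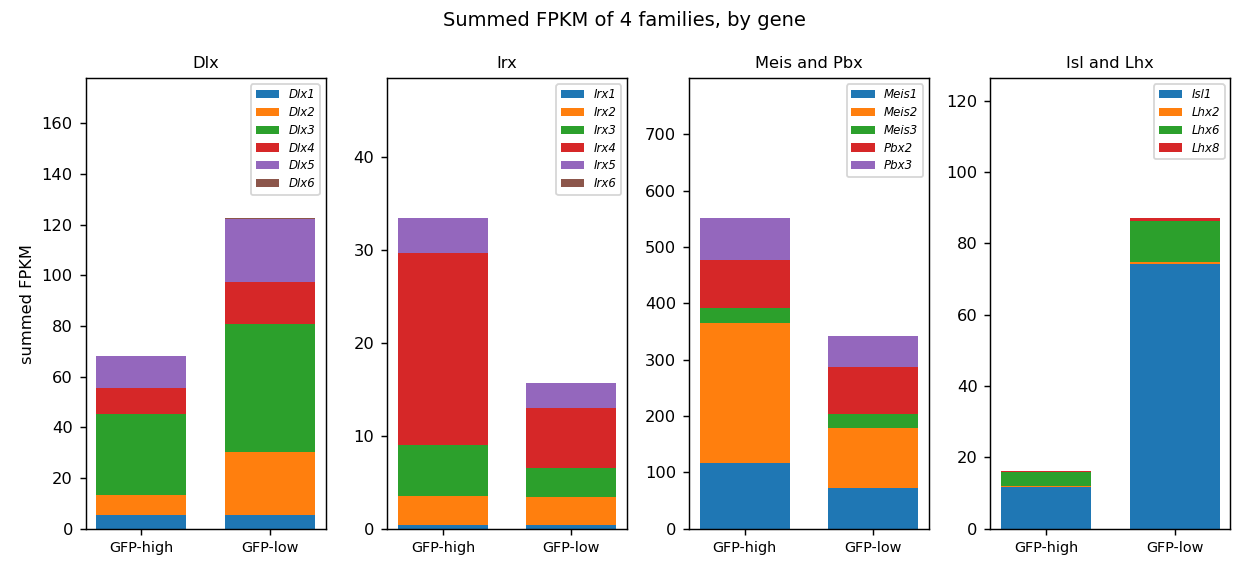
Summed FPKM of the Dlx, Irx, Meis and Pbx, and Isl and Lhx genes in the GFP-high and GFP-low libraries, stacked by gene, with bars starting at 0 and a separate axis for each family. The Dlx and LIM (Isl and Lhx) stacks are taller in GFP-low cells, at 123 and 87.1 FPKM, and the Irx and TALE stacks in GFP-high cells, at 33.4 and 551 FPKM.

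The Msx genes, repressors that act downstream of BMP signals in teeth and skull, were also higher in GFP-low cells. *Msx2* was at 3.36 FPKM in GFP-high and 8.69 FPKM in GFP-low cells, a ratio of 2.59. *Msx1* was at 1.83 and 2.83 FPKM, a ratio of 1.55 with both values under the minimum.

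*Isl1*, on chromosome 13 (116298281 to 116309689), had the largest fold towards GFP-low cells among the enriched factors. It encodes a LIM homeodomain protein of motor and sensory neurons, heart progenitors and early oral and branchial tissue. *Isl1* was at 11.7 FPKM in GFP-high cells, or 317 to 736 reads, and at 74.3 FPKM in GFP-low cells, or 2649 to 6149 reads. The ratio was 6.37, and *Isl1* made up 72.0% and 85.3% of the summed FPKM of the 4 LIM genes. *Lhx6*, which acts in tooth and palate mesenchyme and in interneurons, was at 3.89 FPKM in GFP-high and 11.5 FPKM in GFP-low cells, a ratio of 2.96. Its relative *Lhx8*, with 74.4% of homeobox bases shared, was at 0.26 and 0.76 FPKM, a ratio of 2.92 at a far lower level. *Lhx2*, known from hair follicle stem cells and the eye, was at 0.38 and 0.53 FPKM. The 4 LIM genes summed to 16.2 FPKM in GFP-high and 87.1 FPKM in GFP-low cells, a ratio of 5.38.

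Since *Isl1*, *Lhx6* and *Msx2* are also known from neural crest derivatives, neurons or mesenchyme, markers of those cells were read beside them. All 8 Schwann lineage genes were higher in GFP-low cells, and the neural crest factor *Sox10* was at 0.51 FPKM in GFP-high and 42.7 FPKM in GFP-low cells. Of the 11 fibroblast genes, 7 were enriched in GFP-low cells, with the collagen gene *Col3a1* at 193 and 966 FPKM and the matrix gene *Postn* at 41.6 and 436 FPKM. Another 2 were higher in GFP-high cells, *Twist2* at 2.27 and 0.50 FPKM and *Thy1* at 19.6 and 16.2 FPKM. *Pdgfra* was close to equal, at 1.42 and 1.46 FPKM. The 8 neuronal genes summed to 16.4 FPKM in GFP-high and 5.38 FPKM in GFP-low cells. This excess in GFP-high cells came mainly from *Stmn2* at 10.4 and 2.22 FPKM and *Syt1* at 4.64 and 0.92 FPKM. Of these 8, 3 were higher in GFP-low cells, namely *Prph* at 0.38 and 1.42 FPKM, *Nefm* at 0.28 and 0.52 FPKM and *Nefl* at 0.07 and 0.08 FPKM. The part of fibroblasts and Schwann lineage cells in the GFP-low levels of *Isl1*, *Lhx6*, *Msx2* and the Dlx genes was not tested.

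The Prrx and Alx genes are themselves defining factors of limb and craniofacial mesenchyme. All 4 were higher in GFP-low cells, and none reached 5 FPKM in either library. *Prrx1* was at 0.69 FPKM in GFP-high and 2.11 FPKM in GFP-low cells, a ratio of 3.06. *Prrx2* was at 3.11 and 3.86 FPKM, a ratio of 1.24. *Alx4* was at 0.27 FPKM, or 37 to 50 reads, and at 1.04 FPKM, or 188 to 255 reads, a ratio of 3.85. *Alx1* was at 0.09 and 0.14 FPKM, with no more than 12 reads in either library. Their sum was 4.16 FPKM in GFP-high and 7.15 FPKM in GFP-low cells, a ratio of 1.72 beside the ratio of 4.63 of the fibroblast marker sum.

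Among the Pax genes, *Pax9* was the only one of the 5 to reach 5 FPKM. It acts in pharyngeal pouches and tooth mesenchyme and in the epithelium of lingual papillae. *Pax9* was at 120 FPKM in GFP-high and 254 FPKM in GFP-low cells, a ratio of 2.11, and held 97.3% and 99.5% of the Pax sum. Its close relative *Pax1*, which shares roles with it in pharyngeal pouches and vertebrae, went the other way, at 2.66 FPKM (177 reads) in GFP-high and 0.46 FPKM (40 reads) in GFP-low cells. The ratio of *Pax1* was 5.78, with both values under the minimum of 5 FPKM.

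*Pax3* and *Pax7*, which mark neural crest and muscle progenitors, were near the low end of the table. *Pax3* was at 0.33 FPKM, or 26 to 33 reads, in GFP-high and at 0.71 FPKM, or 73 to 93 reads, in GFP-low cells. *Pax7* was at 0.14 and 0.12 FPKM, a ratio of 1.17. *Pax6*, the eye and pancreas factor, was at 0.16 and 0.10 FPKM, with at most 18 reads in either library. The 12 muscle genes measured beside them summed to 21.9 FPKM in GFP-high and 21.1 FPKM in GFP-low cells, and 6 were higher in each. Among the myogenic factors, *Myf5* was at 0.18 and 0.06 FPKM, *Myod1* at 0.54 and 0.09 FPKM and *Myog* at 1.60 and 0.70 FPKM. *Myf6* was listed at 0 in GFP-high cells and at 0.08 FPKM in GFP-low cells. *Tnnt3*, at 8.58 and 5.05 FPKM, was the 1 muscle gene enriched in GFP-high cells, and none was enriched in GFP-low cells. Of the 6 melanocyte genes, *Tyr* was listed at 0 in both libraries and *Dct* was at 0.23 and 0.91 FPKM, while *Mitf*, which other tissues also express, was at 17.2 and 1.24 FPKM.

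The Irx genes lie in 2 clusters of 3, *Irx1*, *Irx2* and *Irx4* on chromosome 13 and *Irx3*, *Irx5* and *Irx6* on chromosome 8. They encode TALE homeodomain proteins that pattern heart, limb and neural tissue, and their homeobox sequences were close, with 85 to 92.2% of bases shared. *Irx4* (chromosome 13, 73260479 to 73269608), a gene best known from the heart ventricle, was the most abundant of them in both libraries. It was at 20.6 FPKM in GFP-high and 6.5 FPKM in GFP-low cells, a ratio of 3.17. *Irx2*, 626 kb from *Irx4*, was close to equal at 3.04 and 2.97 FPKM. *Irx1*, the far gene of the cluster, was at 0.46 and 0.41 FPKM. *Irx4* thereby made up 61.7% of the Irx sum of GFP-high cells and 41.5% of that of GFP-low cells.

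In the other cluster *Irx3* was at 5.51 FPKM in GFP-high and 3.11 FPKM in GFP-low cells, a ratio of 1.77 close to the minimum level. *Irx5*, which acts with *Irx3* in limb and heart, was at 3.79 and 2.67 FPKM, a ratio of 1.42. *Irx6* was listed at 0 in GFP-high cells and stood at 0.01 FPKM, or 1 read, in GFP-low cells, so no fold is given. The Irx sum was 33.4 FPKM in GFP-high and 15.7 FPKM in GFP-low cells, a ratio of 2.13. At most 4.16% of the 50-nt windows of an Irx gene (*Irx3*) occur elsewhere in annotated exons.

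The TALE cofactors Meis and Pbx were the most abundant family by sum, with 551 FPKM in GFP-high and 342 FPKM in GFP-low cells, a ratio of 1.61. They bind DNA beside Hox and other homeodomain proteins and steer their site choice. *Meis2* (chromosome 2, 115863064 to 116065839) was at 249.8 FPKM in GFP-high and 107 FPKM in GFP-low cells, a ratio of 2.33. In rank among the 45 factors *Meis2* was number 2 in GFP-high and number 5 in GFP-low cells. *Meis1*, a factor of blood stem cells, limb and lens, was at 116 and 72.2 FPKM, a ratio of 1.61. For *Meis1*, 13.6% of exon bases lie under another gene model of the same strand, *Gm37818*. *Meis3* was close to equal, at 25.95 FPKM in GFP-high and 23.9 FPKM in GFP-low cells. *Pbx3* was at 74.1 and 54.3 FPKM, a ratio of 1.36. *Pbx2* was at 85.4 and 84.4 FPKM, and its ratio of 1.01 was the smallest of all. The excess of this family in GFP-high cells thus lay mostly in *Meis2*, which held 45.3% of its sum in GFP-high cells but 31.3% in GFP-low cells.

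*Pitx1* was the highest of the 45 factors in both libraries. It is the factor of oral ectoderm, pituitary and hindlimb. *Pitx1* was at 319.6 FPKM in GFP-high and 289 FPKM in GFP-low cells, which placed it at rank 429 and 459 among all genes. Its ratio was 1.11, and it held 20.1% and 17.4% of the summed FPKM of all 45 factors. *Pitx3*, known from lens and midbrain dopaminergic neurons, was at 0.66 FPKM (21 reads) in GFP-high cells and listed at 0 in GFP-low cells. Set against the GFP-low floor, its level in GFP-high cells was at least 9.28-fold higher. Its homeobox shares 87.8% of bases with that of *Pitx1*. *Barx2*, a factor of oral and hair follicle epithelium and of muscle, was at 222 FPKM in GFP-high and 259 FPKM in GFP-low cells. In rank among the 45 factors it was number 3 in GFP-high and number 2 in GFP-low cells. *Barx1*, which acts in molar and stomach mesenchyme, was at 0.49 and 0.44 FPKM, or 16 and 19 reads.

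*Nkx2-3*, a factor of gut, spleen and pharyngeal tissue, was at 49.1 FPKM in GFP-high and 39.4 FPKM in GFP-low cells, a ratio of 1.25. *Nkx2-5*, the cardiac factor, was at 0.09 FPKM (3 reads) in GFP-high cells and listed at 0 in GFP-low cells, so that both were at or near the floor. *Tshz1*, a zinc finger homeobox gene of middle ear and palate, was at 36.0 and 32.3 FPKM, a ratio of 1.11. *Tshz2* (chromosome 2, 169633013 to 170071816) was at 11.4 FPKM in GFP-high and 4.21 FPKM in GFP-low cells, a ratio of 2.70. That value is uncertain, since 81.5% of *Tshz2* exon bases lie under exons of the antisense gene model *Gm26883* and strand use in the FPKM step is not given in the sources used here. No other of the 45 factors had more than 20% of its exon bases under another gene. *Cux1*, a CUT-domain repressor of broad expression, was at 123 and 175 FPKM, a ratio of 1.42.

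**Figure D4:**
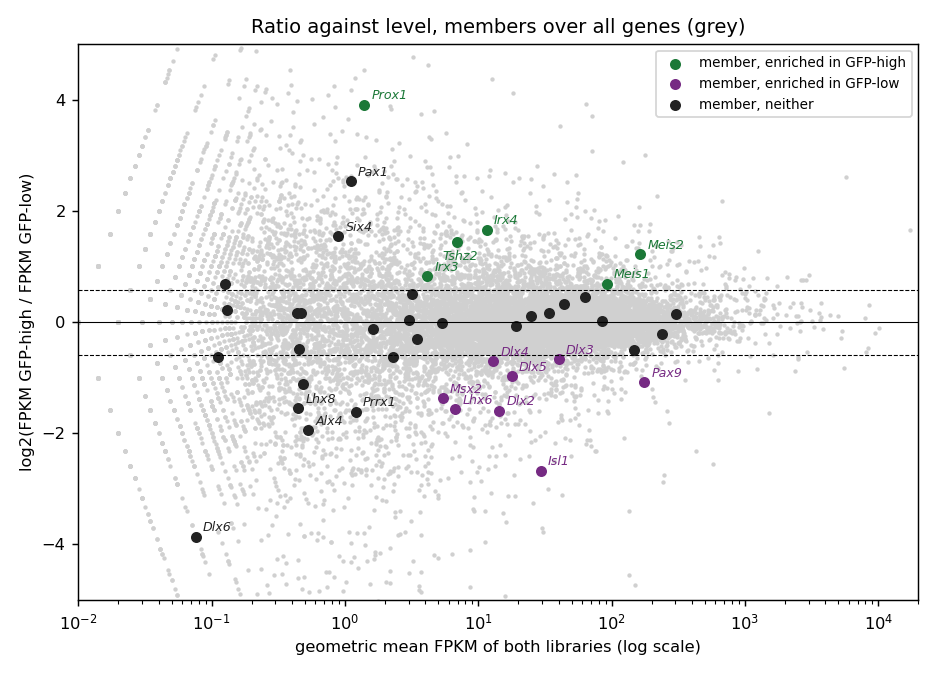
Log2 ratio of FPKM, GFP-high over GFP-low, against the geometric mean FPKM of both libraries (log axis) for all genes (grey) and the 45 factors (green, enriched in GFP-high; purple, enriched in GFP-low; black, neither), with dashed lines at a ratio of 1.5. Genes at 0 in a library have no ratio and are not drawn, nor are grey points beyond 5 log2 units, and the 14 enriched factors lie between 15.0-fold (*Prox1*) towards GFP-high and 6.37-fold (*Isl1*) towards GFP-low.

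By level, the factors of both libraries fell into a small set of abundant genes and a long tail. Over 50 FPKM in both libraries were 8 of them, namely *Pitx1*, *Barx2*, *Pax9*, *Meis1*, *Meis2*, *Pbx2*, *Pbx3* and *Cux1*, and 12 were under 1 FPKM in both. Of the 8 abundant factors, *Meis1* and *Meis2* were enriched in GFP-high cells, *Pax9* in GFP-low cells and 5 in neither.

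Cofactors of these families were counted by the same rule, over a list of 21 genes that bind LIM, sine oculis or other homeodomain proteins. *Tle4*, a Groucho family co-repressor, was the 1 gene enriched in GFP-high cells, at 35.4 FPKM against 19.5 FPKM in GFP-low cells, a ratio of 1.81. Its relative *Tle2* was enriched in GFP-low cells, at 25.98 FPKM in GFP-high and 54.8 FPKM in GFP-low cells, as was the LIM-only gene *Lmo1*, at 17.4 and 34.6 FPKM. *Ldb1*, the adaptor of LIM homeodomain proteins such as *Isl1*, was at 324 FPKM in GFP-high and 409 FPKM in GFP-low cells, a ratio of 1.26 beside the 6.37 of *Isl1*. *Eya2*, a partner of *Six4* and its relatives, was at 16.8 and 12.6 FPKM.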

How the data were processed

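The deposited FPKM, 1 value per gene and population, were made by the authors with Trimmomatic 0.36 (trimming), GSNAP (mapping of 50-nt single reads to mm10) and Cufflinks 2.2.1. Their signed fold column was not used. Libraries were stranded (TruSeq mRNA). Of 21628 entries, 21 were dropped as not protein-coding in GENCODE M21, and 17 had no value in a library. No test was run, since 1 library per population gives no replicate error. Ratios are of FPKM, medians are of log2(FPKM + 1), which understates changes of low genes, and the floor is 3 reads on the shortest full-length transcript at the estimated depth, with fragments taken as 200 nt, for counting error only. Homeobox sequences came from GENCODE coding sequences on mm10 and promoters from RefSeq (GRCm38.p6), which held 31 of the 45 genes. All 45 genes are named, and of the other homeobox genes and cofactors those enriched, except a few not reported here, with *Ldb1* and *Eya2* chosen after their values were seen. Members and lists were chosen with earlier results of these data known. Alternatives were other FPKM minimums, a 2-fold minimum, pseudocounts of 1 and 0.1, TPM, and GFP-low scaled to the median ratio of well-expressed genes (0.973). Python 3.11.15, numpy 2.4.6, pandas 2.3.3 and matplotlib 3.10.9 were used.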

Additional observations from a re-analysis of the deposited data

How the results depend on the processing

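The 6 GFP-high factors became 3 with a minimum of 5 FPKM in both populations, which leaves out *Prox1*, *Irx3* and *Tshz2* by construction (3.60% of all genes met this rule), and 11 with no minimum (14.5% of all genes). The 8 GFP-low factors became 16 with no minimum (15.0% of all genes), among them *Irx6* and *Dlx6*, which are under the floor in GFP-high cells, and 5 at 2-fold (2.16% of all genes), where *Dlx3*, *Dlx4* and *Dlx5* fall short. Under the other settings the counts lay between 4 and 8 for GFP-high, where 2.08% to 7.13% of all genes met the rule. For GFP-low they lay between 6 and 11, where 2.93% to 7.24% of all genes did. The TPM scale (FPKM over their library sum) lowers all ratios by 0.10 on the log2 scale. On it *Cux1* joined the GFP-low factors at 1.52-fold (log2 ratio -0.60), and 3.77% of all genes met the rule for GFP-high and 5.58% that for GFP-low. Without *Tshz2*, an alternative chosen after seeing the data, 5 GFP-high factors remained. The median difference of -0.01 was -0.0239 with a pseudocount of 0.1, -0.0021 for genes with a mean of at least 1 FPKM, -0.0726 on TPM and 0.0129 with GFP-low scaled to the median ratio. *Dlx1* changed direction when GFP-low was scaled to the median ratio, and *Irx2* and *Pbx2* on TPM. No paired analysis was possible because each population has 1 library. With 1 library, depth sets only the counting error, which is widest for *Dlx6*, *Irx6*, *Pitx3*, *Nkx2-5*, *Alx1*, *Pax6*, *Pax7* and *Barx1*, and no value measures the spread between animals.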

Other observations

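Homeobox and Pax genes outside the 45 and outside the Hox clusters were read by the same rule. Towards GFP-high cells, *Hopx*, an atypical homeodomain protein without DNA contacts of its own, was at 291 FPKM in GFP-high and 181 FPKM in GFP-low cells, a ratio of 1.61.

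Towards GFP-low cells, *Pou3f1*, a POU factor of Schwann cells and epidermis, was at 0.70 FPKM in GFP-high and 7.99 FPKM in GFP-low cells, a ratio of 11.4. *Isl2*, the relative of *Isl1*, was at 13.8 and 41.3 FPKM, a ratio of 2.98. *Pbx4* was at 3.80 and 8.74 FPKM. *Tlx1*, *Tshz3* and *Pou6f1* were also enriched, with ratios of 1.56, 1.53 and 1.86. The Schwann lineage markers moved the same way as *Pou3f1*, and their part in its level was not tested.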
